A study of Drosophila melanogaster with 5 samples.

Results

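Glia are the support cells of the fly nervous system, and 10 genes widely used as their markers were followed here across 5 arrays of pupal heads. The genes were taken from the array annotation wherever a probe set, the group of oligonucleotides that reports a transcript, names 1 of the 10 alone. This gave 10 probe sets for 9 genes, of 13966 probe sets tested and 10844 genes with a probe set of their own. Transmitter uptake was represented by Eaat2, Gat and Gs2, and glial identity and barrier function by repo, moody, Nrx-IV, wrapper, loco and nrv2. Eaat1, the main glutamate transporter of fly glia, was not analysed here.

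RNA came from heads of Drosophila melanogaster 80 h after pupa formation, in pools of 15 to 20 heads, each extracted separately. Canton S, a laboratory wild type, was hybridised on 2 arrays and the mutant strain otd-uvi on 3. According to the labels, otd-uvi carries an eye-specific mutant allele of orthodenticle (otd, now oc), which encodes a homeodomain transcription factor, and the comparison concerned genes that depend on Otd. Each genotype was a single strain, so strain background and the allele cannot be told apart, and the eye is only 1 of the tissues in a whole head.

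Insect glia take up the transmitters that neurons release and recycle them. Astrocyte-like glia in the neuropil carry transporters for glutamate-like amino acids and for GABA, and glutamine synthetase turns glutamate into glutamine. Other glia form the sheath around the nervous system, in which septate junctions seal neighbouring cells into a blood-brain barrier, or wrap the bodies and axons of neurons. In the fly eye, photoreceptor axons run through several glial layers of the retina and lamina. In whole-head RNA, fewer cells of a type and less RNA per cell cannot be told apart.

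The oc probe set (143425_at) had signals of 71.7 and 56.4 on the wild-type arrays and of 27.6, 46.8 and 59.8 on the mutant arrays. These overlapped, and the log2 difference of -0.49 (SE 0.33, limma adjusted p = 0.527) did not pass the test. It was -0.23 without otd-uvi replicate 1 and -0.89 (limma adjusted p = 0.313) with the RNA-quality covariate described below. It was below 0 in all 15 alternative fits, not all of which can change a difference, as described at the end. All values are MAS5 signals computed and scaled by the authors, and every log2 difference is the otd-uvi mean minus the Canton S mean of log2(signal + 8). The arrays themselves differed: the median of 8 mouse and yeast control probe sets was 3.07 to 3.69 in Canton S and 7.03 to 7.92 in otd-uvi. Signal at the 3-prime end over that at the 5-prime end, a log2 ratio that is high in degraded RNA, averaged 1.41 and 1.37 over 3 control genes on the wild-type arrays and 1.32, 1.68 and 1.88 on the mutant ones (p = 0.4 in a two-sided exact permutation test, where 0.1 is the smallest that 5 arrays allow). All 10 glial probe sets exceeded the brightest mouse or yeast control on all 5 arrays, so each had measurable signal in this head tissue.

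The transmitter uptake genes lay below 0 and the identity and barrier genes at or above it. All 3 measured transmitter uptake genes had lower signals on every otd-uvi array than on either Canton S array, as did 15.4% of all probe sets, with a median log2 difference of -0.53. The 6 identity and barrier genes had log2 differences between 0.0027 and 0.32, with a median of 0.11. The median over all 10844 genes was 0.06. None of the 10 glial probe sets passed limma at an adjusted p under 0.05, a threshold passed by 0.773% of all probe sets. An unadjusted p under 0.05 was reached by 2 of the 10, Eaat2 and Gs2, both lower in otd-uvi. This compares with 15.0% of all probe sets in either direction and 7.27% in the lower direction. The count was 4 without otd-uvi replicate 1, where Gat, lower in otd-uvi, and Nrx-IV, higher, were added. Without Canton S replicate 2 the difference of Gs2 shrank to -0.33.

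**Figure D1:**
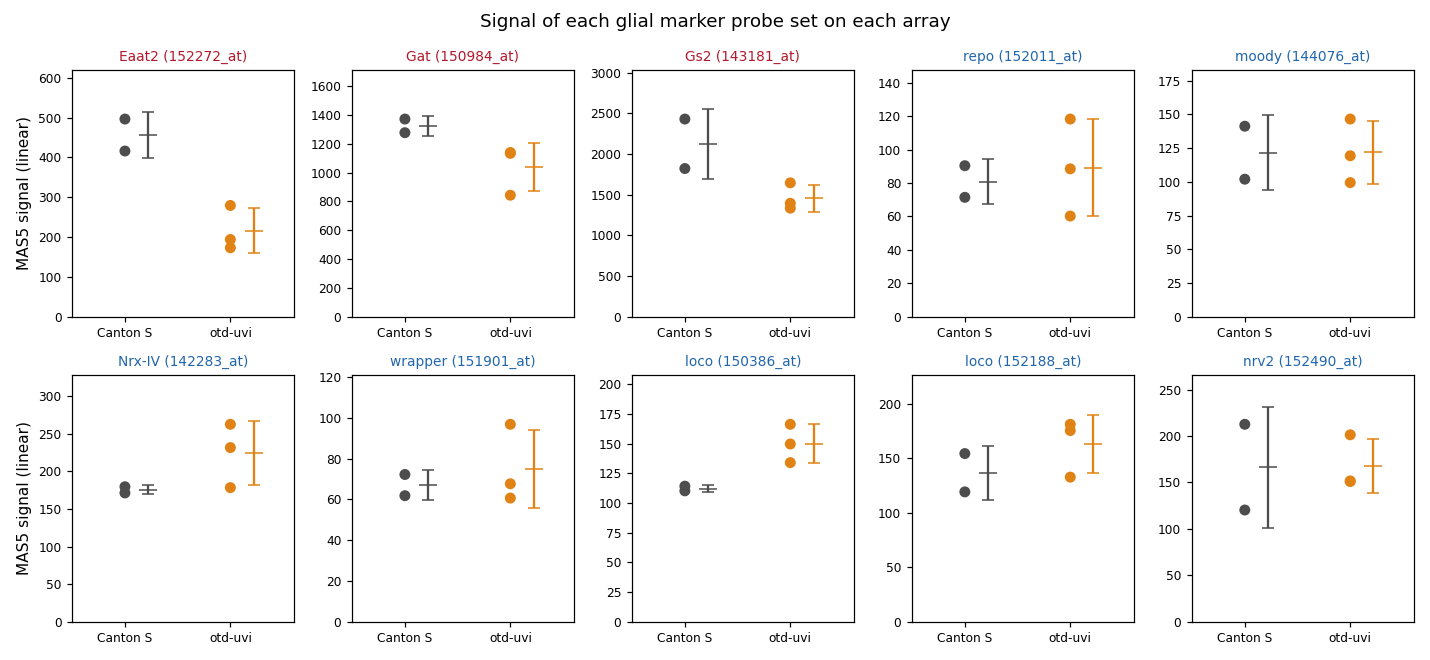
MAS5 signal (linear, each vertical axis from 0) of the 10 glial probe sets on 2 Canton S arrays (grey) and 3 otd-uvi arrays (orange), with the mean and SD of each group beside the points. The panels of Eaat2, Gat and Gs2 (red titles) have no otd-uvi point as high as a Canton S point, while of the 7 panels of identity and barrier genes (blue titles) the groups are apart in 1, that of loco by 150386_at.

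Eaat2 had the largest difference of the 9 genes. It encodes a membrane transporter of the excitatory amino acid family, which in the fly carries aspartate and taurine. Its probe set (152272_at) gave signals of 496 and 416 in the wild type, against 173, 279 and 194 in the mutant. The lowest Canton S array was well above the highest otd-uvi array. The mean went from 456 ± 56.8 (SD, n = 2) to 215 ± 56.4 (SD, n = 3), or 0.472 of the Canton S mean. The log2 difference was -1.08 (SE 0.22, 95% interval -1.60 to -0.56, limma adjusted p = 0.0934), and an adjusted p under 0.1 was reached by 1.95% of all probe sets. Eaat2 thus came close to the threshold and did not pass it. In 15 alternative fits its difference stayed between -1.28 and -0.94, and its adjusted p lay between 0.0561 and 0.337.

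Gs2 encodes the cytosolic glutamine synthetase, which joins ammonia to glutamate after uptake. The signals of its probe set (143181_at) were 1822 and 2431 in the wild type and 1395, 1646 and 1334 in the mutant. The groups did not overlap, although both Canton S arrays differed from each other by 0.41 on the log2 scale. With means of 2127 ± 431 and 1458 ± 165, the log2 difference was -0.53 (SE 0.16, 95% interval -0.92 to -0.15, limma adjusted p = 0.219). It ranged from -0.74 without Canton S replicate 1 to -0.33 without Canton S replicate 2. The otd-uvi arrays spanned 0.30 on the same scale, less than both wild-type arrays.

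Gat encodes the GABA transporter of astrocyte-like glia, which clears GABA from the neuropil. Its probe set (150984_at) had signals of 1373 and 1278 in the wild type and of 1140, 1134 and 843 in the mutant. All 3 mutant arrays were lower, and replicate 3 stood below the others. The means were 1325 ± 67.0 and 1039 ± 170, and the log2 difference was -0.36 (SE 0.16, 95% interval -0.74 to 0.02, limma adjusted p = 0.355). The interval included 0. Across the 15 alternatives the difference stayed below 0, between -0.43 and -0.20.

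The homeodomain factor gene repo is the standard nuclear marker of fly glia, expressed in nearly all of them outside the midline. Its probe set (152011_at) had signals of 90.3 and 71.4 on the Canton S arrays, and of 60.2, 118 and 88.5 on the otd-uvi arrays. Both wild-type values lay inside the mutant range. The log2 difference was 0.09 (SE 0.30, 95% interval -0.61 to 0.79, limma adjusted p = 0.910). Its sign turned in 3 of 15 alternatives. The interval does not show equal levels in both strains, since it reaches a loss or a gain of more than 0.6 on the log2 scale.

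The gene wrapper encodes an immunoglobulin-domain protein on glia that ensheathe neurons and axons. The signals of 151901_at were 72.2 and 61.8 in the wild type and 67.7, 60.7 and 96.9 in the mutant, with overlapping groups and 1 mutant array above the rest. The log2 difference was 0.13 (SE 0.26, 95% interval -0.48 to 0.73, limma adjusted p = 0.851), and without otd-uvi replicate 3, the array with the high value, it was -0.054.

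The barrier genes include both ends of a signalling module of the surface glia. The receptor gene moody encodes a G protein-coupled receptor needed for a tight barrier. By 144076_at it read 102 and 141 in the wild type and 99.4, 147 and 119 in the mutant. Means were nearly the same, 122 ± 27.8 and 122 ± 23.7, and the log2 difference was 0.0027 (SE 0.23, 95% interval -0.55 to 0.55, limma adjusted p = 0.996). No direction can be given for moody, whose sign turned in 4 of 15 alternatives.

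The gene loco encodes a regulator of G protein signalling that acts below Moody in the barrier glia, and it had 2 probe sets. By 150386_at the wild type read 114 and 110 and the mutant 150, 166 and 134, so every mutant array was higher. The log2 difference was 0.39 (SE 0.18, 95% interval -0.02 to 0.80, limma adjusted p = 0.355). By the brighter probe set, 152188_at, the wild type read 119 and 154 and the mutant 175, 133 and 181, and these overlapped. Here the log2 difference was 0.24 (SE 0.21, 95% interval -0.25 to 0.73, limma adjusted p = 0.623). Both probe sets of loco stayed above 0 in all 15 alternatives, between 0.06 and 0.50, and neither passed the test in any of them.

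Nrx-IV encodes neurexin IV, a transmembrane protein of the septate junction. Its probe set (142283_at) had signals of 171 and 179.6 in the wild type and of 178, 263 and 232 in the mutant. Of the mutant arrays 2 were higher than both wild-type arrays and 1 lay between them. The means were 175 ± 5.82 and 224 ± 42.6, and the log2 difference was 0.32 (SE 0.19, 95% interval -0.13 to 0.78, limma adjusted p = 0.477). It was above 0 in all 15 alternatives, from 0.15 to 0.47.

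The gene nrv2 encodes a beta subunit of the sodium pump found in glia and needed for septate junctions. By 152490_at it read 213 and 120 in the wild type and 152, 201 and 151 in the mutant. All mutant values fell between both wild-type values, which lay 0.78 apart on the log2 scale, the widest gap between Canton S arrays among the 10 probe sets. The log2 difference of 0.05 (SE 0.26, 95% interval -0.57 to 0.68, limma adjusted p = 0.944) became 0.44 without Canton S replicate 1 and -0.34 without Canton S replicate 2. The data therefore set no direction for nrv2.

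**Figure D2:**
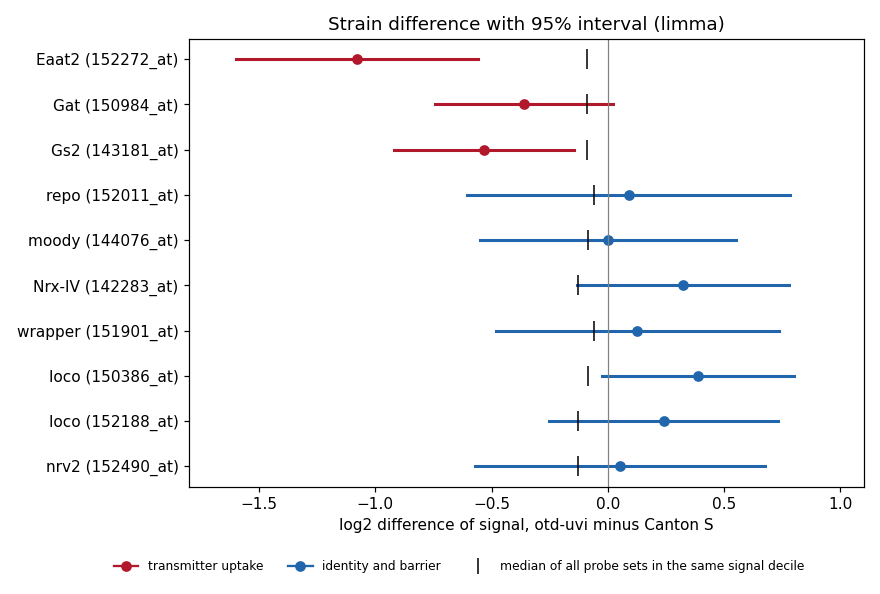
Log2 difference of signal between otd-uvi and Canton S (horizontal axis) for the 10 glial probe sets, as points with 95% intervals from limma, red for transmitter uptake and blue for identity and barrier genes. Black ticks mark the median of all probe sets in the same decile of mean signal. The intervals of Eaat2 and Gs2 lie below 0, and those of the other 8 probe sets include 0.

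Across all probe sets, dim ones had higher and bright ones lower values in otd-uvi, and the uptake genes are among the brightest. The median log2 difference in the decile of Eaat2, Gat and Gs2, the tenth, was -0.09, and relative to it their differences were -0.99, -0.27 and -0.44. The identity and barrier genes fell in deciles 7 to 9, with medians of -0.06 to -0.13. Relative to those medians their differences were 0.09 for moody to 0.47 for loco by 150386_at. The uptake median minus the identity and barrier median was -0.64 as measured and -0.62 relative to probe sets of like signal.

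The classes can also be compared within each array, where the scaling of the array cancels. Relative to the Canton S mean, the median of the uptake genes was -0.59, -0.35 and -0.65 on otd-uvi arrays 1, 2 and 3. That of the identity and barrier genes was -0.03, 0.29 and 0.26. The uptake median minus the identity and barrier median was -0.56, -0.65 and -0.91 on these arrays. The Canton S arrays give no reference of their own here, since they are centred on their own mean. No p is given for this difference, because the genes were grouped with earlier results known. For single pairs the pattern was uneven. The log2 ratio of Eaat2 to repo, relative to its Canton S mean, was -0.98, -1.20 and -1.32 in otd-uvi, while that of Gat to repo was 0.16, -0.74 and -0.77.

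**Figure D3:**
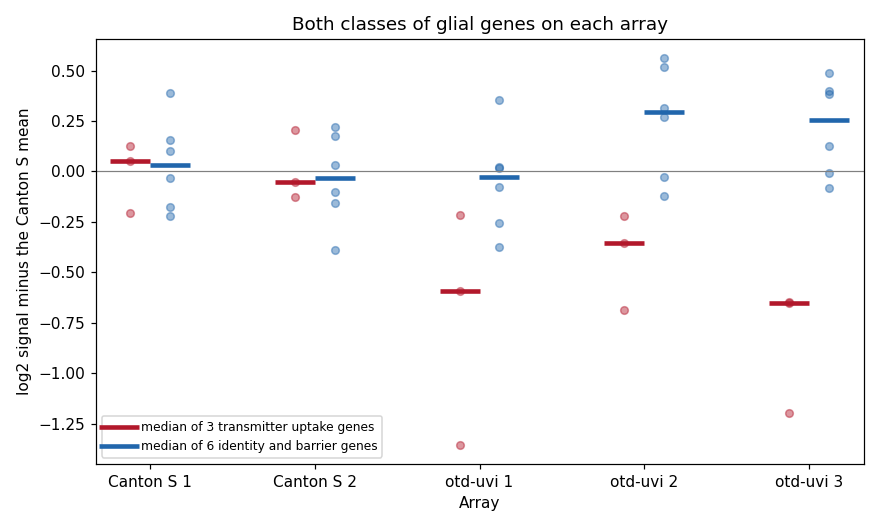
Log2 signal relative to the Canton S mean (vertical axis) on each of the 5 arrays, with a faint point for each gene and a bar for the median of 3 transmitter uptake genes (red) and of 6 identity and barrier genes (blue). The red bars lie at -0.59, -0.35 and -0.65 on the otd-uvi arrays and the blue bars at -0.03, 0.29 and 0.26. The blue median over the groups, 0.11, turned to -0.022 once the RNA-quality ratio was a covariate.

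The separation was present under the processing alternatives that were run. The uptake median stayed between -0.74 and -0.41 and the identity and barrier median between -0.022 and 0.23. The lower end of the second range came from the fit that took the mean 3-prime to 5-prime ratio of an array as a covariate, in which the Eaat2 difference was -1.19 (limma adjusted p = 0.193). In that fit repo and wrapper were at -0.17 and -0.045 and moody at -0.11.

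**Figure D4:**
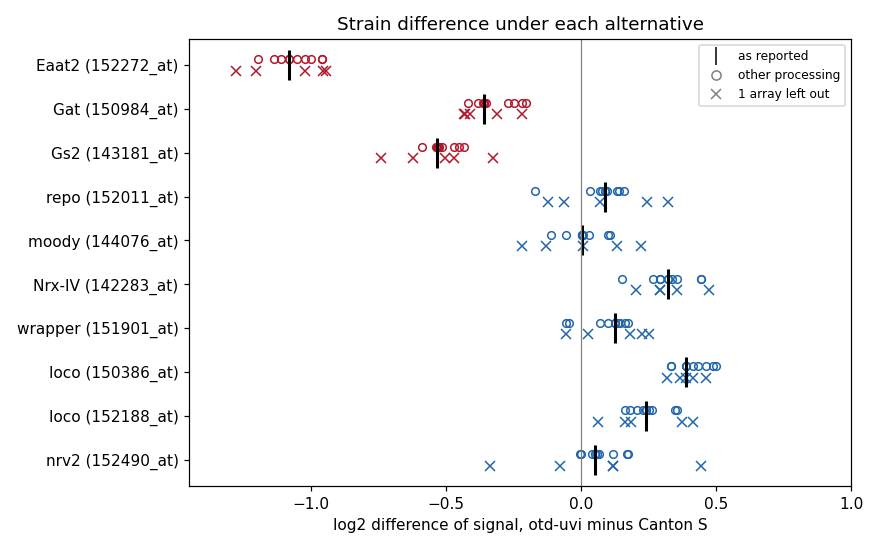
Log2 difference of each glial probe set (horizontal axis) as reported (black bar), under 10 other processing settings (open circles) and with 1 of the 5 arrays left out (crosses). Symbols of Eaat2, Gat and Gs2 are all below 0 and those of Nrx-IV and both loco probe sets all above 0, while repo, moody, wrapper and nrv2 have symbols on both sides.

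Groups that did not overlap were not rare on these arrays. Of the 10 glial probe sets 4 did not overlap, 3 of them lower in otd-uvi and 1 higher, where 34.0% of all probe sets did not overlap, 15.4% lower and 18.6% higher. The total of 4 is close to that background.

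Related genes of transmitter uptake and recycling, on a list of 21 of which 20 were measured, were mostly lower in otd-uvi. The list held 17 genes below 0 and 3 above, with a median log2 difference of -0.23, against 4748 of 10844 genes below 0 and a median of 0.06 for all genes. That reference includes dim genes, which ran higher in otd-uvi. Except for NAAT1 and GlyT, the list fell in deciles 6 to 10 of mean signal, where the medians of all probe sets were -0.01 to -0.13. The gap to probe sets of like signal is therefore smaller. None of the list passed limma, and 4 had an unadjusted p under 0.05, all of them lower: VGlut, DAT, Got2 and e. Over all genes 1592 of 10844 reached that p, 727 of them lower. The largest difference was that of VGlut, the vesicular transporter that loads glutamate in neurons, with signals of 212 and 384 in the wild type and 180, 74.5 and 66.4 in the mutant. These did not overlap, and the log2 difference was -1.49 (SE 0.43, limma adjusted p = 0.202). Balat, a beta-alanine transporter of glia, was at -0.58 (adjusted p = 0.404), and DAT, the dopamine transporter of neurons, at -0.53 (adjusted p = 0.323). Gs1, the mitochondrial counterpart of Gs2, was at -0.26 (95% interval -0.67 to 0.14, adjusted p = 0.516). Gs1 was chosen outside the rule for names, after its value was seen.

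Septate junction and barrier genes outside the 10 markers numbered 25 measured of 28 listed, 17 below 0 and 8 above, with a median of -0.09. They fell in deciles 6 to 10 of mean signal, where the medians of all probe sets were -0.01 to -0.13. The list median thus lay within the range of probe sets of like signal. None of the list passed limma. With an unadjusted p under 0.05, 4 were lower (dlg1, Tsf2, nrv3 and l(2)gl) and 1 was higher (bou). Among all genes 1592 of 10844 reached that p, 727 of them lower. The scaffold gene dlg1, which also acts at synapses, read 309 and 422 in the wild type and 187, 226 and 167 in the mutant, with a log2 difference of -0.88 (SE 0.20, limma adjusted p = 0.118). Its dimmer probe set was at -1.13 (144871_at, adjusted p = 0.131). Tsf2, a transferrin-like protein of the septate junction, was also at -0.88 (SE 0.21, adjusted p = 0.144), with 498 and 817 in the wild type against 321, 341 and 372 in the mutant. The pump subunit gene nrv3, which is expressed in neurons, was at -0.49 (SE 0.11, adjusted p = 0.116). It read 2693 and 2751 in the wild type and 1974, 1995 and 1843 in the mutant, without overlap. The other subunit, nrv1, was at -0.14 (adjusted p = 0.678), and it was likewise chosen after its value was seen. Of the 3 sodium pump beta subunits, nrv3 had the only interval below 0, -0.75 to -0.23. The intervals of nrv2, -0.57 to 0.68, and of nrv1, -0.48 to 0.20, overlap it. No test of a difference between subunits was made.

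Genes of glial fate, wrapping and growth gave 26 measured of 31 listed, with 16 below 0, 10 above and a median of -0.13. Over all genes 4748 of 10844 lay below 0, with a median of 0.06. The list spanned deciles 1 to 10 of mean signal, where the medians of all probe sets were -0.13 to 0.27. None passed limma, and 1 had an unadjusted p under 0.05, a value reached by 1592 of all 10844 genes, 727 of them lower. The 1 gene of the list was pyr, a ligand of the fibroblast growth factor receptor Heartless, at -1.26 (SE 0.42, limma adjusted p = 0.241). Its signals were 71.8 and 23.5 in the wild type and 14.5 or less in the mutant. Of the mutant values 2 were under the brightest mouse or yeast control of their array, and the Canton S arrays were far apart. The other ligand of that receptor, ths, was at -0.58 (adjusted p = 0.376). Nckx30C, a calcium exchanger gene, was at -0.66 (adjusted p = 0.570), with 1 otd-uvi array at 230 and the others at 868 and 671, and its dimmer probe set was at -0.28 (adjusted p = 0.549). The glial fate gene gcm, its relative gcm2 and tll did not exceed the brightest mouse or yeast control on any array. The astrocyte gene alrm, chosen after its value was seen, was at -0.14 (95% interval -0.42 to 0.15, adjusted p = 0.630).

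Of the G protein module around Moody, 5 of 11 listed genes were measured, and their median was -0.18. None passed limma. Galphai, a G protein subunit that acts with Moody, read 154 and 111 in the wild type and 57.8, 77.0 and 85.7 in the mutant, with a log2 difference of -0.78 (SE 0.25, adjusted p = 0.225). Pka-R1, a regulatory subunit of protein kinase A, was at -0.69 (SE 0.23, adjusted p = 0.232), and Galphao at -0.18 (adjusted p = 0.635). A dimmer probe set of Galphao was at -0.74 (151572_r_at, adjusted p = 0.290), that of Galphai at 0.17 (adjusted p = 0.840) and those of Pka-R1 at -0.17 and -0.77 (adjusted p of 0.822 and 0.379). By the brightest probe sets Galphai and Pka-R1 did not overlap between groups, 2 of 5 genes and both lower in otd-uvi. Of all probe sets 34.0% did not overlap in either direction and 15.4% in the lower one. The difference from moody was not tested. Galphai and Pka-R1 also act in neurons.

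**Figure D5:**
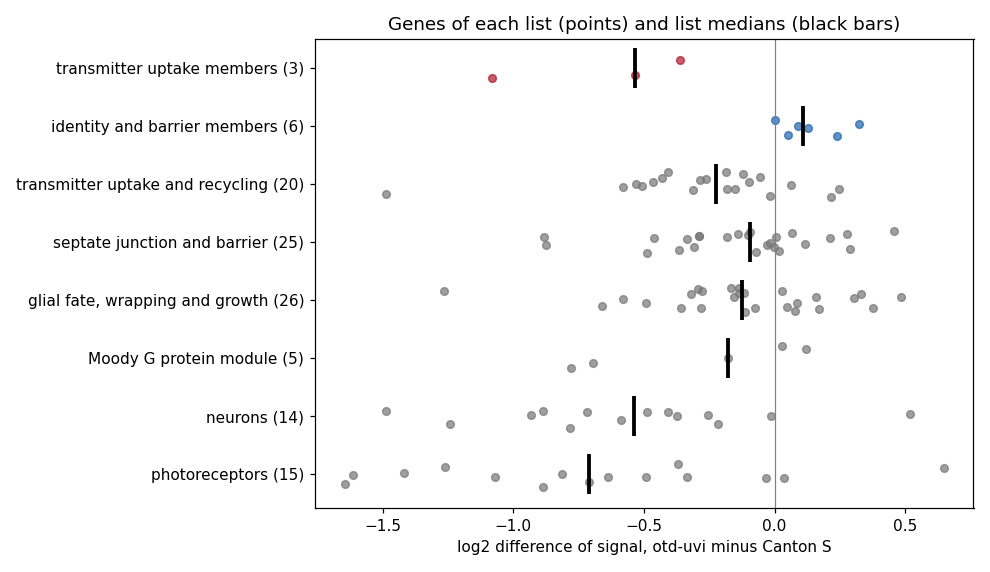
Log2 difference between otd-uvi and Canton S (horizontal axis) of each measured gene (points, 1 probe set per gene, number of genes in brackets) and the median of each list (black bars). The bar of the uptake genes is at -0.53, that of the identity and barrier genes at 0.11, and those of neurons and photoreceptors at -0.54 and -0.71.

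Markers of neurons and photoreceptors had median differences below 0 as well. Over all 10844 genes, 4748 lay below 0, 47 fell by limma and the median was 0.06. Both lists fell within deciles 4 to 10 of mean signal, where the medians of all probe sets were -0.13 to 0.20. None of the neuronal list (14 measured of 19) passed limma. It had 13 genes below 0, 1 above (nwk, 0.52) and a median of -0.54, and its summed signal was 5604 to 6188 in Canton S and 3845 to 4609 in otd-uvi. The dimmer probe sets of nwk were below 0, at -0.77 (148449_at, limma adjusted p = 0.328) and -0.29 (142418_at, adjusted p = 0.586), so the array gives no single direction for nwk. The photoreceptor list (15 of 18) had 13 below 0, 5 that fell by limma (Cds, chp, Arr2, inaD and trp), 2 above 0 (Galphaq at 0.65 and trpl at 0.03) and a median of -0.71, with a summed signal of 18142 to 19895 in Canton S and 9787 to 11840 in otd-uvi. No gene of either list was under the mouse and yeast controls on every array. The summed signal of the 3 uptake genes was 3691 to 4125 against 2371 to 3060, and that of the 6 identity and barrier genes 729 to 768 against 733 to 922. VGlut, Gad1 and nrv3 are on the neuronal list as well as on the uptake or barrier list. The part of neurons and photoreceptors in the values of the uptake genes was not tested.

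Other tissues of the head did not follow 1 direction. Over all 10844 genes, 38 rose and 47 fell by limma, and 6096 lay above 0 and 4748 below. Hemocyte markers (12 of 13) had a median of 0.21 with 1 gene that rose by limma, NimC1. Its Canton S signals, 2.05 and 2.48, were under the brightest mouse or yeast control of those arrays. Of the hemocyte genes 9 were above 0 and 3 below, with crq the lowest at -0.96 (limma adjusted p = 0.170). Fat body markers (9 of 12) had a median of -0.67, muscle markers (10 of 15) one of -0.05 and tracheal markers (6 of 8) one of 0.13, with no gene past the threshold in these 3 lists by limma.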

How the data were processed

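The deposited values are MAS5 signal intensities on a linear scale, per the submitters' processing notes, 1 array per sample from biotin-labelled total RNA. The MAS5 version, its settings, the scaling target and detection calls are not given in the sources used here, and the values were already scaled between arrays by the authors. Of 14010 probe sets, 44 controls were left out and 13966 tested. Array annotation named 1 gene for 12443 of them, several for 327 and none for 1196, and gene identifiers gave current symbols for 12394. Positions are not given, because the data name no genome build.

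Signals were analysed as log2(signal + 8), 8 being the rounded 20th percentile. All tested probe sets entered 1 linear model per probe set in limma 3.58.1 (R 4.3.3), moderated by eBayes along an intensity trend. Strain was the single term, with 3 residual degrees of freedom. Benjamini-Hochberg adjustment ran over all 13966 probe sets, with a threshold of 0.05. Where a gene had several probe sets, the one with the highest mean stood for it on lists. Log2 differences understate changes of dim probe sets. The fit was tested on simulated data, with an outcome that is not reported here. The number of arrays limits the precision.

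The 10 members and all gene lists were chosen with earlier results of these data known. The rule for names took every member, oc, each list gene past the threshold and the 3 largest absolute differences of each related list. Alternatives were quantile normalization, median centring, cyclic loess, a floor at the 1st percentile, a pseudocount of 32, a filter that removed the dimmest 40%, moderation without the trend, weights per array, a replicate block, the mean 3-prime to 5-prime ratio of each array as a covariate, leaving out each array, and averaging a gene's probe sets.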

Additional observations from a re-analysis of the deposited data

How the results depend on the processing

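No glial probe set passed an adjusted p under 0.05 in limma under any of the 15 alternative fits. The count with an unadjusted p under 0.05, which was 2, became 4 under quantile normalization and under cyclic loess. The added probe sets there were Nrx-IV and loco by 150386_at, both higher in otd-uvi. It was also 4 without otd-uvi replicate 1, where Gat, lower in otd-uvi, and Nrx-IV, higher, were added. Eaat2, Gat, Gs2, Nrx-IV and both loco probe sets kept their sign in all 15. Not all of these fits are separate checks of a difference. The filter on dim probe sets and the moderation without the trend leave every difference as it was. The replicate block gives the same difference as leaving out otd-uvi replicate 3, which is alone in its block. Signs turned for moody (-0.055 under median centring, -0.11 with the RNA-quality ratio as covariate, -0.22 to 0.22 without 1 array), nrv2 (-0.0051 under median centring, -0.34 to 0.44 without 1 array) and repo (-0.17 with the covariate, -0.12 to 0.32 without 1 array). For wrapper they turned to -0.045 with the covariate and to -0.054 with the replicate block, the same value as without otd-uvi replicate 3. Its difference ranged from -0.054 to 0.25 without 1 array. The uptake median ranged from -0.74 to -0.41 without 1 array. Over all probe sets 108 passed, and 208 did without the dimmest 40%, where fewer were tested, 8 with the covariate, 1 with the replicate block, and 2 to 22 without 1 array. The sample titles number the replicates and do not say whether arrays of equal number were handled together. The correlation of deviations was -0.0045 for number 1 and 0.12 for number 2. It cannot show pairing or its absence, since the deviations of 2 Canton S arrays mirror each other. The block left 1 degree of freedom. The cause of the other changes was not tested. The median over all probe sets moved by under 0.1 on the log2 scale under quantile normalization, median centring and cyclic loess. The 2 Canton S arrays limit every value, and without 1 of them the remaining one is taken to have the spread of the otd-uvi arrays.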

Other observations

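A few genes that act in or around glia were looked at after their values were seen, and none passed limma. The gene e (ebony), whose enzyme in lamina glia joins histamine to beta-alanine, read 299 and 338 in the wild type and 243, 239 and 220 in the mutant, with a log2 difference of -0.43 (SE 0.14, adjusted p = 0.241). Got2, a mitochondrial aminotransferase gene that links glutamate to aspartate, was at -0.47 (SE 0.14, adjusted p = 0.221), with signals of 987 and 1285 against 844, 778 and 819. The engulfment receptor gene drpr was at -0.36 (SE 0.16, adjusted p = 0.368), with 692 and 606 against 427, 587 and 509. Its much dimmer probe set was at -0.06 with overlapping groups (142159_at, limma adjusted p = 0.936). In the other direction bou, which is needed for septate junctions, was at 0.46 (SE 0.17, adjusted p = 0.268), with 144 and 124 against 174 or more on the otd-uvi arrays.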
